A study of Rattus norvegicus with 19 samples.

Results

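A set of 45 transcripts, of 29107 in the deposited table, was restricted to sorted mast cells of the hippocampus among 4 rat tissues at postnatal day 2 (PN2). The members were chosen by their measured level in CPM (a transcript's count as parts per 1000000 of its library's total). A member had a mean of at least 5 CPM in hippocampus at PN2, at least 10 times the higher of the means of bone marrow and skin, and a hypothalamus mean of at most 0.2 times the hippocampus mean. The level limit was met by 10636 transcripts and the fold limit by 73 of these, of which 28 were above the hypothalamus limit and 45 remained. In 3 pairs of members both transcripts held identical values in all libraries, so the 45 are 42 distinct profiles. The name holds for PN2 only: at PN7, 11 members still averaged at least 5 CPM in hippocampus, and 3 were higher in the hypothalamus library than in hippocampus at PN2.

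All animals were wild-type rat pups, perfused with buffered saline, and each library held cells pooled from 6 animals. Immune cells were taken from a Percoll gradient, and live CD45-high, CD11b-negative, FcεRI-positive cells were sorted. At PN2 there were 4 libraries from hippocampus, 2 from hypothalamus, 4 from bone marrow and 5 from skin. The PN7 samples were 3 hippocampus libraries and a single hypothalamus library. Animals of a pool cannot be separated, so the errors below are the spread between pools.

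Mast cells are granule-filled immune cells of connective tissues, which release histamine and proteases when IgE on their surface receptors is cross-linked. In the brain they are found along vessels and membranes around the hippocampus and in the hypothalamus. In bulk RNA from sorted cells, a transcript may come from the sorted type or from other cells or free RNA carried through the sort. Marker genes would show this, but the rows carry Ensembl transcript identifiers only, and 0 of the 45 could be given a gene name with the gene table used here. The identity and function of the members, and the cell type they come from, were therefore not tested. Fewer cells of a type and less RNA per cell cannot be told apart either.

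Total estimated counts ran from 19935250 to 22967152 in hippocampus at PN2 and from 10329777 to 12870442 at PN7. The hypothalamus libraries of PN2 were shallow, at 5495252 and 5607810, and a count of 0 there allows up to 0.546 and 0.535 CPM by a floor of 3 counts. Totals were 9792422 in hypothalamus at PN7, 16196856 to 22563833 in bone marrow and 11704985 to 26394623 in skin. Libraries were made with PCR and no molecular identifiers, so floors cover counting error only.

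One transcript dominated the set. ENSRNOT00000022113.4, used below as the reference, held 3805, 1249, 1267 and 6040.1 CPM in hippocampus replicates 1 to 4 at PN2. It was high in replicates 1 and 4 and about equal in replicates 2 and 3, with a highest-to-lowest ratio of 4.84. It made up 70.8%, 55.1%, 71.5% and 76.0% of the summed CPM of all members in these libraries. The sum itself was 5373, 2267, 1771 and 7948 CPM, between 0.177% and 0.795% of a library's counts. The next member, ENSRNOT00000005561.6, averaged 179 ± 120 CPM (SD, n = 4). Over all members the median was 12.9 CPM, 32 averaged at least 10 CPM and 5 at least 100 CPM.

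Outside the hippocampus most members were low at PN2, with exceptions. ENSRNOT00000005561.6 reached 5.86 CPM in a bone marrow library and 21.8 CPM in hypothalamus replicate 1, and ENSRNOT00000078861.1 reached 8.42 CPM in a skin library. Another member reached 28.0 CPM in hypothalamus replicate 1, and ENSRNOT00000058090.4 reached 19.3 CPM in hypothalamus replicate 2. The reference held at most 0.192 CPM in any bone marrow library and at most 0.643 CPM in any skin library. The summed level of all members was 15.9 ± 6.95 CPM in bone marrow (SD, n = 4) and 25.3 ± 7.33 CPM in skin (SD, n = 5). Counts summed to 0 (below 0.5 estimated counts) over all bone marrow libraries for 12 members and over all skin libraries for 7. In hypothalamus at PN2 the sum was 122 CPM in replicate 1 and 43.8 CPM in replicate 2, and the reference held 32.2 and 0.713 CPM. Replicate 1 held an estimated count above 0 for 29 members and replicate 2 for 10, with 16231 and 13403 transcripts detected among all in these libraries. These low levels are what the rule asked for and are given as a description.

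**Figure D1:**
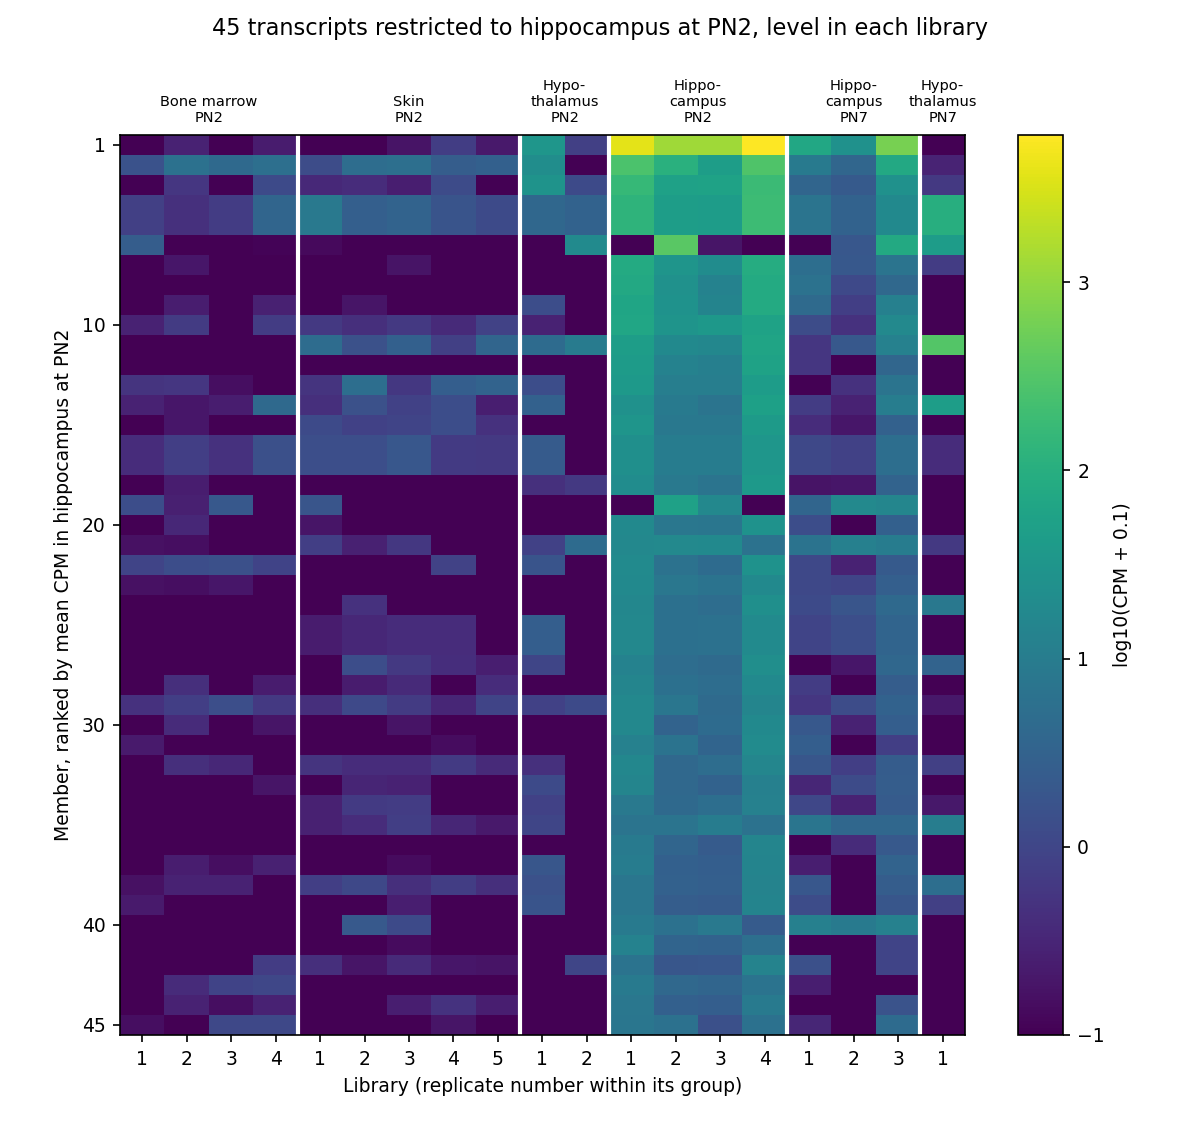
Level of each of the 45 members (rows, ranked by mean CPM in hippocampus at PN2) in each of the 19 libraries (columns, grouped by tissue and age), as log10 of CPM plus 0.1. The hippocampus libraries of PN2 are bright in nearly every row, and 2 rows (ranks 6 and 19) are dark in replicates 1 and 4 of that group.

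The limits cut through a continuous range. Just inside the level limit lay ENSRNOT00000082336.1 at 5.18 CPM in hippocampus at PN2, and just outside it ENSRNOT00000037752.3 at 4.99 CPM. ENSRNOT00000023329.7 was 10.3 times its skin level, and ENSRNOT00000003198.6, at 9.54 times its bone marrow level, was left out. The hypothalamus mean was 0.199 of the hippocampus mean for ENSRNOT00000010627.8, which was kept, and 0.227 for ENSRNOT00000023952.6, which was not. The contrasts that the rule used were fitted across 20521 transcripts with edgeR, and the calls are given as a description only. Members were chosen by these same differences in the same libraries. Their higher share of calls than among all transcripts is therefore set largely by the choice and is no evidence of its own. Of the 45 members 42 were called higher than in bone marrow, where 15.8% of all transcripts were. Against skin 41 were called, with 5.29% of all, and against hypothalamus 19, with 3.72% of all.

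Membership was read again in a hippocampus library that had no part in choosing it. With members chosen without replicate 1, 36 of 41 met all limits in replicate 1 alone, and without replicate 4, 32 of 37 did so in replicate 4. Without replicate 2 or 3, 18 of 51 and 17 of 52 did so in the library left out. The median level in replicates 2 and 3 was 41.2% and 33.3% of the mean of the other libraries. In replicates 1 and 4 it was 138% and 209%. The bone marrow, skin and hypothalamus libraries were the same in each case.

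Most members rose and fell with the reference over the 4 hippocampus libraries of PN2. The ratio of a member to the reference was taken in each library, with the highest ratio divided by the lowest called the ratio spread. A member was said to follow when its ratio spread was at most 2 and at least 5 of the 6 pairs of libraries were ordered as in the reference. By this, 29 of the other 44 members followed, 26 of them distinct. Of all 10635 transcripts other than the reference with a mean of at least 5 CPM in hippocampus at PN2, members included, 0.752% did. The median ratio spread was 1.54 among the 44 and 4.87 among all transcripts at that level. The reference itself moved 4.84-fold, so a transcript with a steady level could not follow it. The highest level was at least 2 times the lowest in 44 of the 45 members and in 17.8% of all transcripts at that level. The medians of this own spread were 4.32 and 1.45. The shares that follow thus also reflect how much the members vary, and following was not compared among equally variable transcripts. These are descriptions over 4 libraries and carry no test.

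The 29 followers were picked for a steady ratio to the reference over these libraries, so the steadiness of their proportion is set by that choice and only its size is described. Their own levels moved 3.20-fold to 7.53-fold. Together they held 1032, 363, 328 and 1389 CPM in replicates 1 to 4, that is 271, 291, 259 and 230.0 CPM for every 1000 CPM of the reference. ENSRNOT00000001449.4 had the smallest ratio spread, 1.15. It held 15.96, 5.79, 5.12 and 24.4 CPM, again high in replicates 1 and 4, and had 0 counts in all bone marrow libraries. ENSRNOT00000078861.1, 1 of a pair of identical rows, also had a ratio spread of 1.15, with 130, 45.6, 44.7 and 191 CPM.

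The depth of these 4 libraries differed far less, with totals of 22176223, 21926876, 19935250 and 22967152 in replicates 1 to 4. Replicate 4 was the deepest and replicate 1 the next. The number of transcripts detected was 18923, 18933, 18487 and 18387, so it did not follow the reference. CPM is already relative to the total, and the part of depth in the pattern was not tested.

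Of the 15 members that did not follow, 5 had the order of the reference in at least 5 pairs and a ratio spread above 2. One of these was ENSRNOT00000005561.6, with 271, 109, 46.3 and 290 CPM and a ratio spread of 2.39. A further 4 members had 4 pairs ordered as in the reference. The remaining 6 had 3 pairs or fewer and ratio spreads of at least 4.94. They are described 1 by 1 below, and this division was made after their values were seen.

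Among these 6, ENSRNOT00000058090.4 was present at 368 CPM in replicate 2 and at no more than 0.0832 CPM in each of the other 3 libraries. Its membership therefore rests on 1 library. ENSRNOT00000082207.1 held 54.5 CPM in replicate 2 and 17.2 CPM in replicate 3, and 0 counts in replicates 1 and 4, where the reference was highest. For both, 0 of the 6 pairs of libraries were ordered as in the reference, a pair tied at 0 included. ENSRNOT00000023329.7 held 9.17, 6.01, 8.34 and 2.24 CPM in replicates 1 to 4, lowest in the library with most reference. ENSRNOT00000012048.4 was likewise lowest in replicate 4, at 6.17 CPM, and held 17.2, 17.5 and 18.9 CPM in replicates 1 to 3. ENSRNOT00000032333.3 was the steadiest, between 6.18 and 9.93 CPM. ENSRNOT00000082336.1, the member just above the level limit, held 7.44, 6.02, 1.36 and 5.89 CPM.

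**Figure D2:**
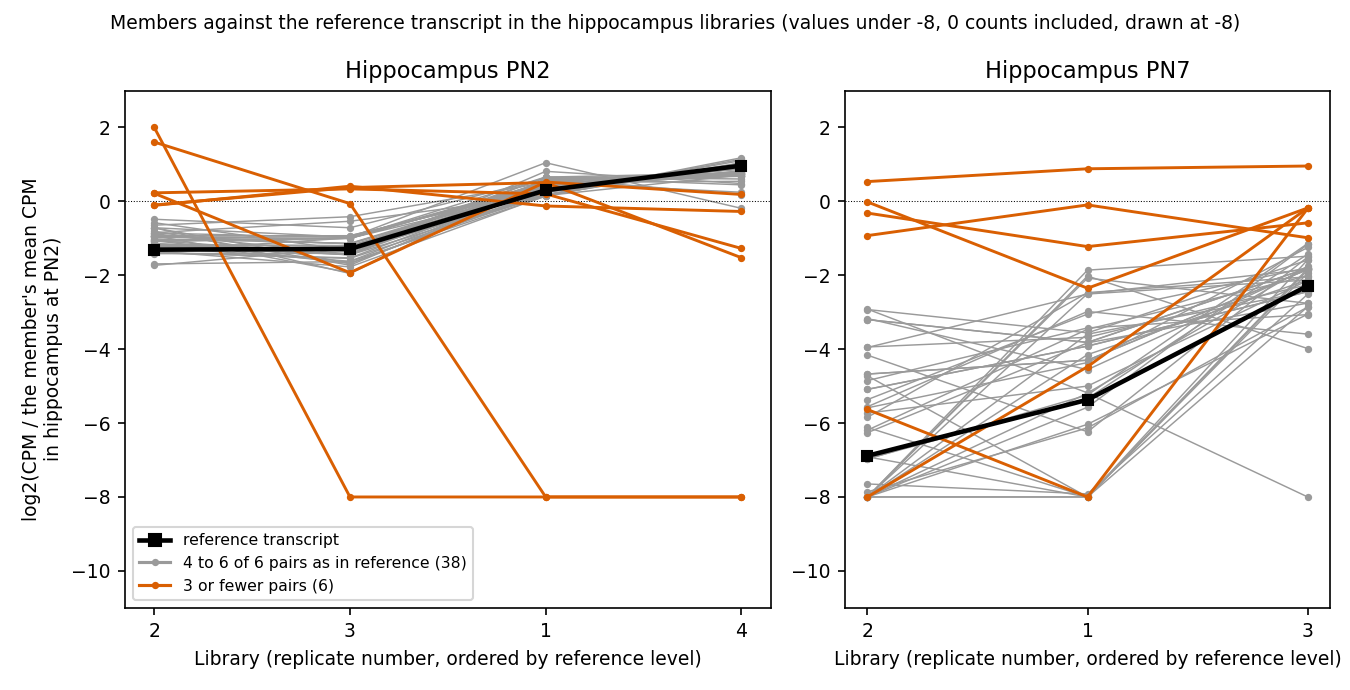
Each line is 1 member, as log2 of its CPM in a library over its own mean in hippocampus at PN2, with libraries ordered by the level of the reference (black) at PN2 (left) and PN7 (right). Most of the 38 grey members climb with the reference at PN2 from replicates 2 and 3 to replicates 1 and 4, and the 6 orange ones do not follow it.

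Following the reference was not a property of the members alone. At the same level, 51 transcripts outside the set also followed it, so the members made up 37.0% of the followers, the reference included. Of the 51, 48 were below the fold limit against bone marrow and skin and 39 were above the hypothalamus limit, 36 of them both. Their median level in hippocampus at PN2 was 9.33 CPM. The median of their folds over the higher of bone marrow and skin was 1.42.

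At PN7 the hippocampus held less of most members. The reference held 74.8, 26.1 and 634 CPM in replicates 1 to 3, below every PN2 library, and its mean was 7.92% of that of PN2. Replicate 3 held most of this, and without it the share was 1.63%. The median member stood at 12.3% of its PN2 level, or 4.50% without replicate 3. For all transcripts of at least 5 CPM at PN2 the median was 100.4%. In 38 members the PN7 mean was below 20% of the PN2 mean, as in 1.46% of all transcripts at that level. Every PN7 library was below every PN2 library in 36 of the 45 members. The share of all transcripts with such a separation is not given here, so this count has no background to be read against.

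Since the members were chosen by a high mean in the same PN2 libraries, a lower level at PN7 is favoured by the choice and is no independent evidence of a fall. With that limit, 12 of the 45 members were called lower at PN7 (edgeR, adjusted p below 0.05), where 5.51% of 20521 transcripts were. None was called higher, with 3.43% of all called. At an unadjusted p below 0.05, 30 members were lower and 0 higher in edgeR, and DESeq2 and limma voom also called 0 higher. The share of all transcripts at that unadjusted limit is not given here. The median log2 fold change was -3.08 among members and 0 over all transcripts tested. The number called lower was 34 with limma voom and 20 with only the hippocampus libraries fitted. It was 4 without PN2 replicate 1 or 4, and 2, 1 and 21 without PN7 replicate 1, 2 or 3. Shares of all transcripts called in these alternative fits are not given here, so their counts cannot be read as particular to the members. All PN7 libraries were also shallower than all PN2 libraries, so depth and age cannot be told apart.

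The reference had a log2 fold change of -3.70 ± 1.10 (SE, edgeR adjusted p = 0.0460) and was lower in 3 of 3 PN7 libraries. This call was lost in 9 of 14 alternative fits, where adjusted p reached 0.152, among them each fit that left out a PN2 library and those without PN7 replicate 1 or 2. ENSRNOT00000064983.3 had the lowest PN7 share, 0.912%. It held 8.75, 4.06, 3.46 and 6.44 CPM at PN2, and at PN7 0.155 CPM in replicate 1 and 0 counts in the other libraries (edgeR, adjusted p = 0.0229). That call was lost with the replicate number as a block (adjusted p = 0.0573) and without PN2 replicate 1 or PN7 replicate 2 or 3, and adjusted p ran up to 0.0866 over the alternatives. ENSRNOT00000084412.1, a follower at 41.8, 13.0, 11.2 and 56.0 CPM at PN2, held 0.466, 0 and 3.68 CPM at PN7, 4.53% of its PN2 mean (edgeR, adjusted p = 0.0714).

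The PN7 shares of followers and non-followers overlapped, from 4.53% to 21.1% with a median of 11.4% in the 29 followers and from 0.912% to 174% with a median of 15.2% in the 15 others. The highest shares were those of the 6 members set apart above. In the 38 members with at least 4 pairs ordered as in the reference, the PN7 mean ran from 0.912% to 21.1% of the PN2 mean, with a median of 11.7%. In the 6 members with 3 pairs or fewer it ran from 29.9% to 174%, with a median of 64.4%. These ranges did not overlap, and the division between them was seen in the data, so no test is given. Without PN7 replicate 3 the ranges did overlap, at 0% to 13.8% and 1.01% to 165%, because ENSRNOT00000058090.4 held 80.6 CPM in that library and at most 1.85 CPM in the other PN7 libraries. The medians were then 4.50% and 60.4%.

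ENSRNOT00000023329.7 was the member with the highest PN7 share. It held 11.9, 9.33 and 12.5 CPM at PN7 against 2.24 to 9.17 CPM at PN2, so each PN7 library was above each PN2 library (log2 fold change 0.74 ± 1.30 SE, edgeR adjusted p = 0.801). ENSRNOT00000082207.1 came next, with 3.51, 17.7 and 15.8 CPM at PN7, 69.0% of its PN2 mean. Its fold between ages depends on PN2 replicate 2 and changed sign without it. For this member the adjusted p was 0.906 (edgeR).

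**Figure D3:**
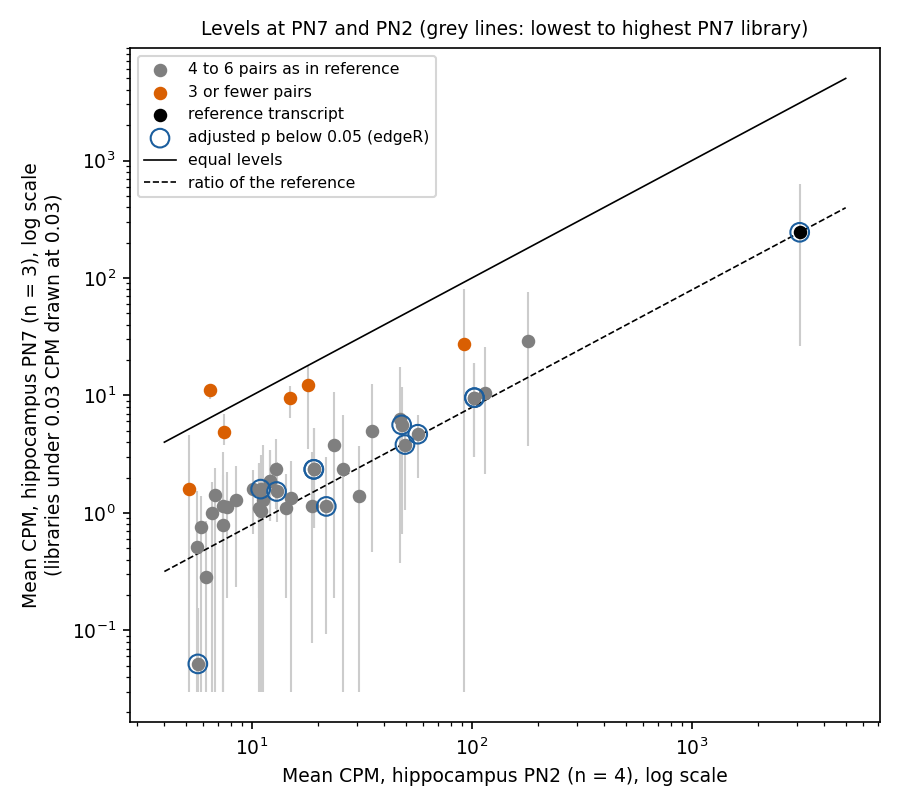
Mean CPM of each member in hippocampus at PN7 against PN2, both axes logarithmic, with grey lines from the lowest to the highest PN7 library. Most members lie near the dashed line, which marks the 7.92% share of the reference, and the 6 orange members lie nearer the line of equal levels.

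The PN7 libraries had no part in choosing the members, so the order of these libraries is a separate reading. Replicate 3, the richest in the reference, was also the highest PN7 library in 37 of the other 44 members, against 31.8% of all transcripts of at least 5 CPM in hippocampus at PN2. The full order of the reference (replicate 3, then 1, then 2) was found in 24 of the 44, against 17% of all. Replicate 3 had the fewest total counts, 10329777, and the most detected transcripts, 17938 against 17202 and 16581 in replicates 1 and 2. Detected transcripts thus had the same order as the reference, and their part in the result was not tested.

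At PN7 most followers lay outside the proportions to the reference that they had at PN2, which their choice had made narrow. For every 1000 CPM of the reference the 29 followers summed to 273 CPM in replicate 3, inside the 230.0 to 291 CPM of the PN2 libraries, and to 632 and 794 CPM in replicates 1 and 2. Taken 1 by 1, in replicate 3 only 5 of the 29 lay inside their own range of PN2 proportions, while 14 lay above it and 10 below it. In replicates 1 and 2 the followers summed to 47.3 and 20.7 CPM. In skin, where the reference was almost absent, the followers summed to 11.9 to 28.3 CPM, so 20.7 CPM lay inside that range and 47.3 CPM above it. The bone marrow sums were 3.83 to 17.1 CPM. Low levels in both tissues were asked for by the rule. Of the 17 followers with a count in all 3 PN7 libraries, 1 had a ratio spread of at most 2, and their median ratio spread was 4.02. Many of these proportions rest on few counts. Of the 45 members, 25 averaged below 2 CPM in hippocampus at PN7, where 3 counts equal 0.233, 0.281 and 0.290 CPM in replicates 1 to 3. The part of counting error in these proportions was not tested.

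Hypothalamus at PN7 was compared with hippocampus at PN7, since none of these 4 libraries was used by the rule. The 1 hypothalamus library has no replicate, and edgeR's fit assumes that it varies like the other groups. The reference had 0 counts there, which allows up to 0.306 CPM, and was at least 799-fold higher in hippocampus at PN7 by a floor of 3 counts in that library (edgeR, adjusted p = 0.0305, higher in 3 of 3 libraries). Without hippocampus replicate 3 the bound was 165-fold. The call was lost with limma voom (adjusted p = 0.440) and with only the groups compared (adjusted p = 0.191). No other member was called higher in hippocampus, and the 1 of 45 compares with 3.84% of all transcripts. At an unadjusted p below 0.05 there were 17, and with DESeq2 9 were called. The shares of all transcripts at that unadjusted limit and with DESeq2 are not given here. These counts therefore have no background, and the 3.84% belongs to the edgeR adjusted p only. Counts summed to 0 in the hypothalamus library for 26 members.

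Some followers were abundant in the hypothalamus of PN7 without the reference. ENSRNOT00000010627.8 held 318 CPM there, against 0.466, 1.97 and 12.4 CPM in hippocampus at PN7 and 4.55 and 9.45 CPM in hypothalamus at PN2. It was the 1 member called lower in hippocampus (log2 fold change -5.83 ± 1.18 SE, edgeR adjusted p = 0.00955, lower in 3 of 3 libraries), where 3.74% of all transcripts were called lower. That call was lost with only the groups compared (adjusted p = 0.0952), and the number of members called lower was 3 with DESeq2 and 4 with limma voom. The shares of all transcripts called lower with DESeq2 and limma voom are not given here, so these counts have no background. ENSRNOT00000078861.1 and its identical row held 99.1 CPM each, against 3.02 to 18.9 CPM in hippocampus at PN7 (log2 fold change -3.18 ± 1.03 SE, edgeR adjusted p = 0.0709). In all, 8 members held at least 5 CPM in this library, 6 of them followers, and 36 held less than 1 CPM. The 29 followers summed to 581 CPM with the reference at 0 counts, so at PN7 in this library their sum was not in the proportion seen in hippocampus at PN2. ENSRNOT00000010627.8 and the pair of identical rows held most of this sum. Most of the other followers held less than 1 CPM, low like the reference, so the departure was that of a few followers.

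**Figure D4:**
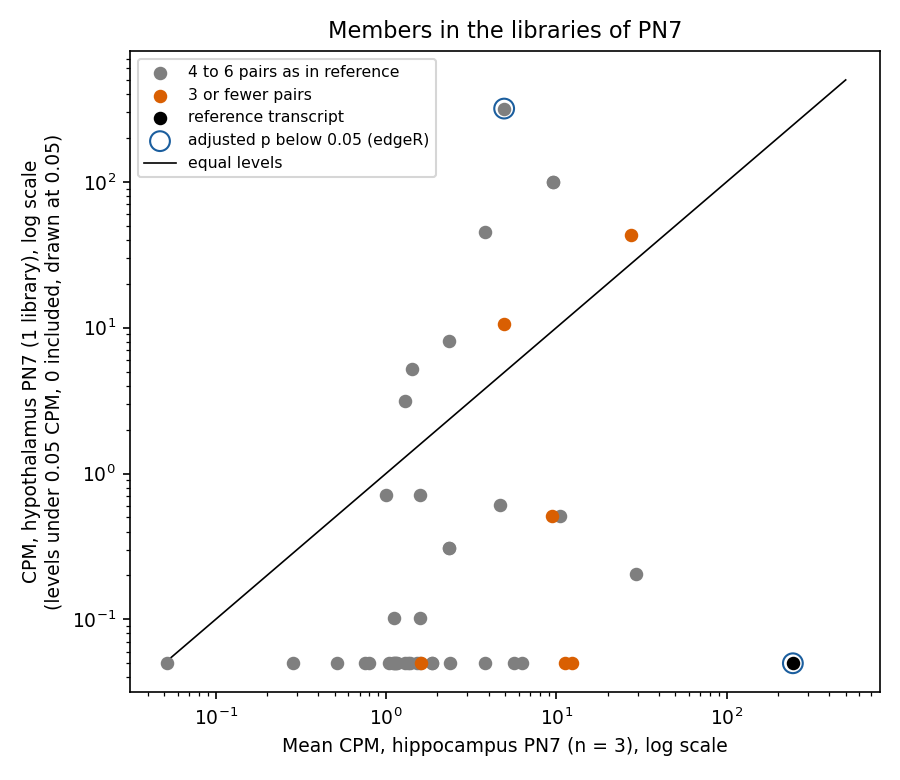
CPM of each member in the hypothalamus library of PN7 against its mean in the 3 hippocampus libraries of PN7, both axes logarithmic. Both circled members were called: the reference (black), at the bottom of the hypothalamus axis, and the grey member at 318 CPM.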

How the data were processed

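RNA of sorted mast cells was measured in 19 libraries. The deposited values are the authors' estimated counts, 1 row a transcript, with no scaling across libraries. The tool kallisto and the build Rnor_6.0 are named in the submitters' processing notes, without a version or settings. Per the labels' protocols, replicates were independent. CPM here is the estimated count divided by the column total, times 1000000. For tests, estimated counts were rounded and fitted for all 19 libraries together with edgeR 4.0.16 under R 4.3.3 (filterByExpr over 6 groups, which kept 20521 transcripts and all 45 members, TMM scaling, robust quasi-likelihood fit). Adjusted p-values are Benjamini-Hochberg values over all transcripts tested, called below 0.05, and a standard error is the log2 fold change divided by the square root of F. DESeq2 1.42.0 and limma 3.58.1 voom were alternatives, as were RLE factors, testing every transcript with a count, keeping those with 5 CPM or more in 3 or more libraries (the stricter filter), fitting the compared groups alone, a replicate block, each replicate left out, and other limits for membership and following.

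Transcripts named in the text were the reference, the 2 highest by level, the 2 extremes at each end of the ratio spread and of the PN7 share, the largest called change in each direction between both regions at PN7, and the nearest transcripts on each side of every limit. ENSRNOT00000012048.4 and ENSRNOT00000032333.3 were added after their values were seen. Members, lists and limits were chosen with earlier results of these data known. The gene table used here, with 47357 genes, gives Ensembl identifiers for 0 genes, so gene names, marker lists and sequences of the members are not used here. Same-numbered hippocampus libraries of PN2 and PN7 had nearly uncorrelated deviations, which cannot show that they are unrelated.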

Additional observations from a re-analysis of the deposited data

Results flagged for a closer look

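In 25 groups of values (named members and sums of members, in groups of 4 or 5 libraries with a mean of at least 1 CPM), 2 held a library far from the others. Chance alone marks about 1 in 20 groups, a rate that does not apply to ENSRNOT00000058090.4, which is named for its uneven ratio to the reference over the hippocampus libraries of PN2. ENSRNOT00000058090.4 held 368 CPM in hippocampus replicate 2 at PN2, against 0 to 0.0832 CPM in the other 3 libraries. ENSRNOT00000078861.1 held 3.50 CPM in bone marrow replicate 4, against 0.367 to 0.710 CPM in the other bone marrow libraries.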

How the results depend on the processing

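The number of members was 45 and stayed within 1.5 times that under all 11 alternatives, from 32 with a level limit of 10 CPM to 52, and from 37 to 52 with a hippocampus library of PN2 left out. The number of followers was 29. It became 19 with a ratio spread limit of 1.5 and 9 with all 6 pairs required, and lay between 30 and 36 with a PN2 library left out and 2 of the 3 remaining pairs required. With all 3 pairs required it was 10 without replicate 1, 12 without replicate 4 and 31 without replicate 2 or 3. Using the ratio spread alone, chosen after seeing the data, gave 30. Members called lower at PN7 than at PN2 in hippocampus numbered 12, then 34 with limma voom, 20 with only the groups compared and 7 with the replicate block, and from 1 to 21 with a library left out. For hippocampus against hypothalamus at PN7 the 1 member called lower became 3 (DESeq2), 4 (limma voom) and, when the compared groups were fitted alone, 0 (1 to 3 with a library left out). The 1 called higher became 9 with DESeq2, 2 with only the groups compared and 2 with the stricter filter (1 to 3 with a library left out). The cause of these changes was not tested, and the shares of all transcripts called under each alternative are not given here.

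Between ages, the log2 fold change of ENSRNOT00000082207.1 was -0.65, and it was 2.46 with limma voom and from -1.07 to 1.05 with a library left out, positive without PN2 replicate 2. That of ENSRNOT00000058090.4 was -1.91, and it was 2.21 with limma voom, 0.38 with the replicate block and from -6.78 (without PN7 replicate 3) to 9.44 (without PN2 replicate 2) with a library left out. Between regions at PN7 it was -0.49, and 0.10 and 0.06 without hippocampus replicate 1 or 2, and -5.36 without replicate 3. None of the values given here for these members was called. Deviations of same-numbered hippocampus libraries of PN2 and PN7 correlated at 0.011, -0.015 and -0.068 for numbers 1 to 3. Unlike numbers gave -0.044 to 0.052. With so few libraries, these values cannot show whether same-numbered libraries share more than their number. The block left the 1 member called in each direction between regions at PN7. Leaving out the lone hypothalamus library of PN7 leaves no comparison, so that alternative has no value. The hippocampus libraries of PN7 are shallower than those of PN2, so low members there carry a larger counting error.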
